A study of Saccharomyces cerevisiae with 4 samples.

Results

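The dis3mtr library, from a yeast strain with a lesion in the catalytic subunit of the RNA exosome, was set directly against the mtr3-1 library, from a strain with a lesion in the exosome ring. All ORFs that had values in the 16 deposited term tables were used, each once, and the measure was the dis3mtr value divided by the mtr3-1 value. These were 133 ORFs of the 144 listed, and the other 11 had no values. The mutant called dis3mtr (strain T186, a dis3 mutation, also named rrp44-1 or mtr17-1) and the mtr3-1 mutant (strain T208, an mtr3 mutation) were grown in YPD at 30 °C to an OD600 of 0.4 and then kept at 37 °C for 2 h. Poly(A)-selected RNA was sequenced with 1 library per genotype, and the WT (strain BJ2664) and mtr4-1 (strain T188) libraries of the series were not used. Each mutant was a separate strain, so the allele and the rest of the strain's genome cannot be told apart. There was no replicate, so no p-value or replicate error could be given, and the depth behind the values is unknown.

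The exosome removes or shortens RNAs by working inward from the 3′ end, in the nucleus and the cytoplasm. Its ring of RNase PH-like proteins, Mtr3 among them, has no catalytic activity in yeast and threads RNA toward Dis3 (Rrp44), which carries an exonuclease and an endonuclease site. The mtr mutants are known for the accumulation of poly(A) RNA in the nucleus. MTR3, DIS3 and the other exosome and cofactor genes of a list of 27 had no entry with values, so neither lesion could be checked through its own transcript. The tables hold genes of tubulin, the spindle, mitosis and budding, which the authors selected by GO term, so the values below describe those genes and not the transcriptome.

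The values were higher in dis3mtr for most of the listed genes. The ratio was above 1 for 93 of 133 ORFs, with a median of 1.22, which is a shift of 0.29 on the log2 scale, and quartiles of 0.963 and 1.52. At 115% of the mtr3-1 value or more, a bound that the authors used against WT, stood 73 ORFs (54.9%), and at 85% or less stood 26 (19.5%). No source used here gives the normalization of the libraries, and a difference in scaling between them would shift every ratio alike. Division by the median ratio left 41 ORFs (30.8%) at 115% or more and 45 (33.8%) at 85% or less. The 41 were all among the 73, and the 26 were all among the 45. Another 32 ORFs passed the upper bound only as deposited, and 19 passed the lower bound only after division. Ratios are given as deposited below, and a ratio "relative to the median" is the ratio divided by 1.22.

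Identity was uncertain for 12 of the 133 ORFs. For 9 of them (GLC7, SKP1, BNI5, CEP3, GIN4, CBF2, KCC4, CTF13 and DMA2) the listed kb position lay away from the named ORF. The other 3 identifiers (YDR118W-A, YFR036W-A and YER133W-A) had no entry in the R64 annotation. SKP1 and BNI5, CEP3 and GIN4, CBF2 and KCC4, and CTF13 and DMA2 had entries listed on each other's chromosomes. Which gene of such a pair a value belongs to cannot be told. CBF2 and KCC4 carried the same values, as did CTF13 and DMA2, and GLC7 and YER133W-A. The 133 ORFs therefore held 130 distinct sets of values. The remaining 121 were treated as certain, although for 3 of them, ARP1, CLB4 and RSC4, the listed chromosome number differs from R64 while the kb position matches within 1 kb. Their median ratio was also 1.22. In the plot of one library against the other, both groups are shown.

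**Figure D1:**
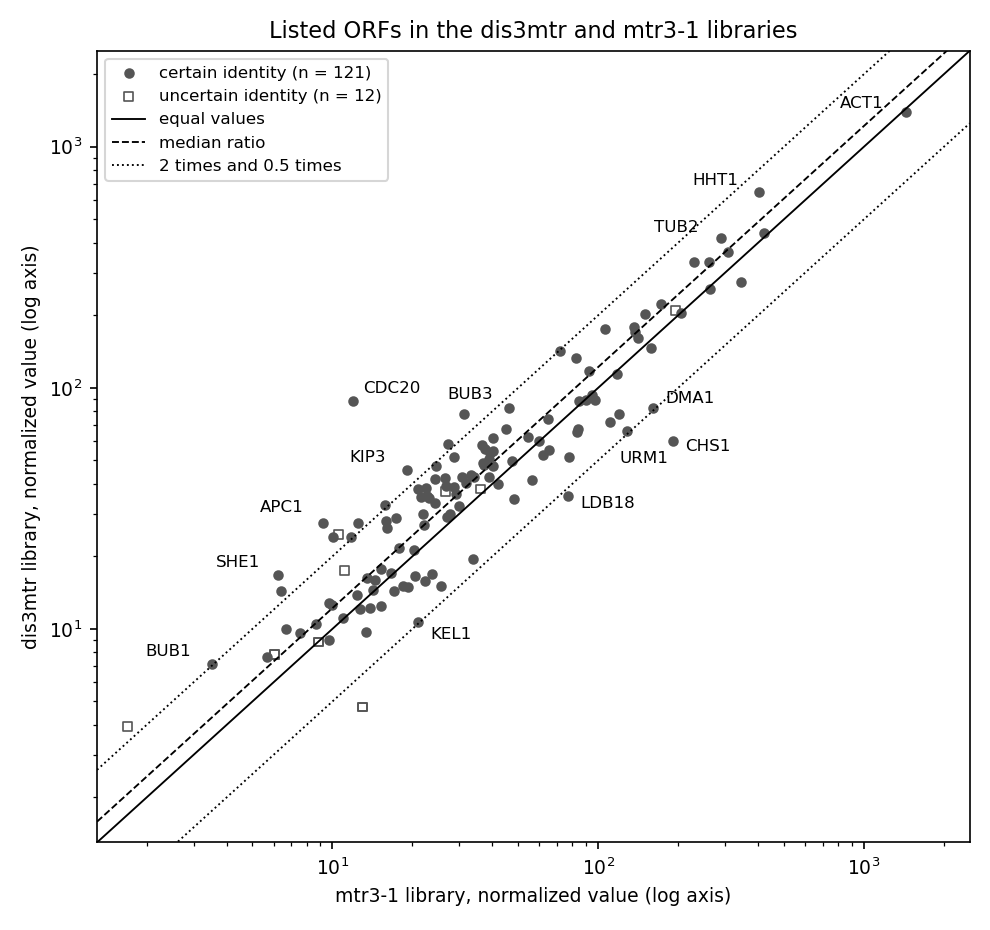
Normalized value of each of the 133 ORFs in the mtr3-1 library (x, log axis) and the dis3mtr library (y, log axis), with filled circles for the 121 certain ORFs and open squares for the 12 uncertain ones. Lines mark equal values, the median ratio of 1.22, and ratios of 2 and 0.5. CDC20 lies farthest above the lines and CHS1 farthest below.

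At 2 times or more stood 14 ORFs (10.5%), of which 12 were certain, and at 0.5 times or less stood 4 (3.01%), of which 2 were certain. CDC20 (YGL116W, chromosome 7, 289 to 291 kb on sacCer2), the activator that turns the anaphase-promoting complex on its metaphase substrates, was at 11.9 in mtr3-1 and 88.1 in dis3mtr, a ratio of 7.38. It stood apart from the next gene, APC1 (YNL172W, chromosome 14, 310 to 315 kb), the largest subunit of that complex, which was at 9.20 and 27.5, a ratio of 2.99. SHE1, which restrains dynein, was at 6.23 and 16.7 (2.68 times), and BUB3, of the spindle assembly checkpoint, was at 31.2 and 78.1 (2.50 times). These 4 genes were the only ORFs at 2 times or more relative to the median (3.01%).

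Lower in dis3mtr were genes of several functions. CHS1 (YNL192W, chromosome 14, 276 to 279 kb), a chitin synthase that repairs the wall at cell separation, was at 191 in mtr3-1 and 60.3 in dis3mtr, a ratio of 0.316. LDB18 (YLL049W, chromosome 12, 40 to 41 kb), a dynactin component, was at 76.7 and 35.6 (0.464 times). KEL1, a kelch-domain protein of polarized growth, was at 20.9 and 10.7 (0.511 times), and URM1, a ubiquitin-like modifier, was at 129 and 65.9 (0.512 times). DMA1, which encodes a ubiquitin ligase acting on spindle position, followed at 161 and 82.7 (0.515 times). CDC23, a subunit of the anaphase-promoting complex, was at 33.7 and 19.4 (0.577 times). TVP38, a Golgi membrane protein, was at 0.661 times. Relative to the median, 9 ORFs (6.77%) stood at 0.5 times or less, among them the 6 genes from CHS1 to CDC23 and the entries of GLC7 and YER133W-A, which carry the same values.

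**Figure D2:**
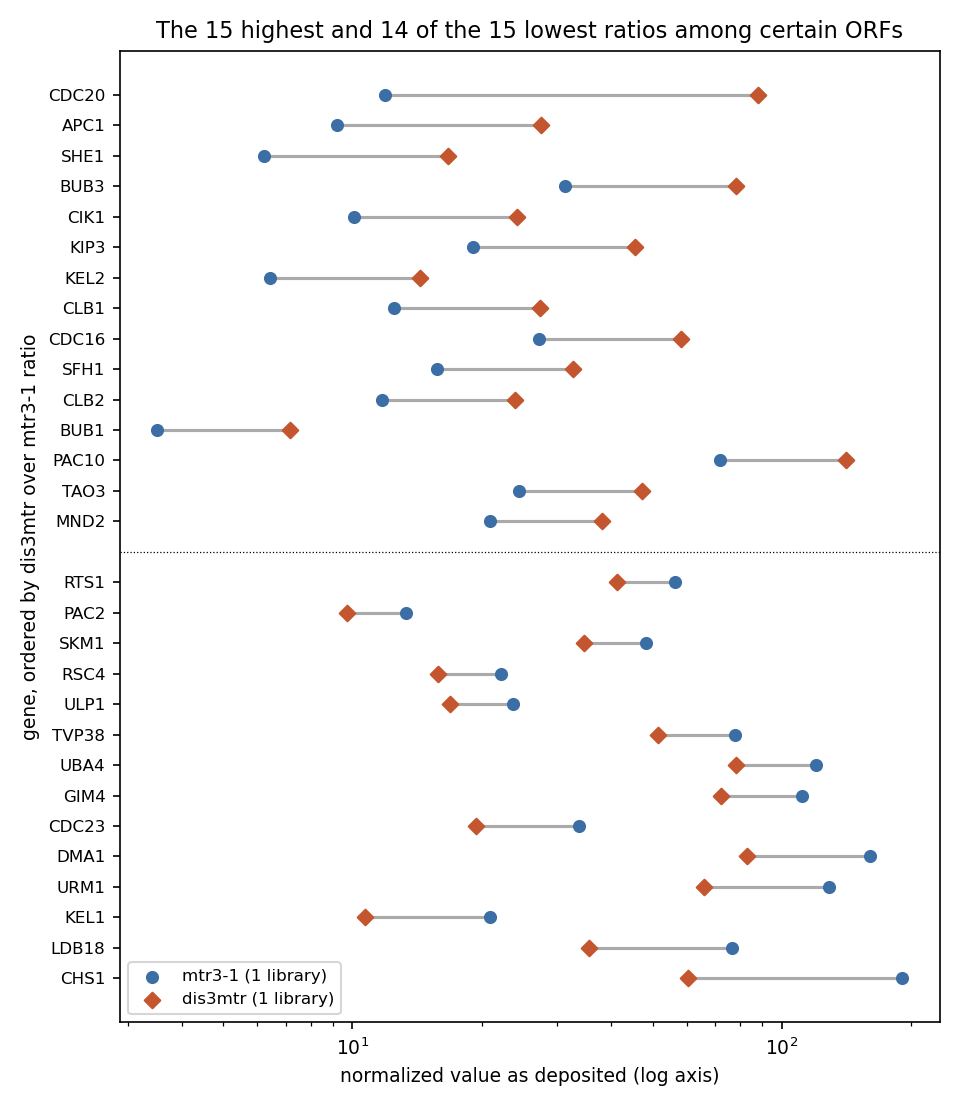
Normalized values in the mtr3-1 library (blue circles) and the dis3mtr library (orange diamonds) for the 15 highest and 14 of the 15 lowest ratios among the 121 certain ORFs (log axis, 1 library each, ordered by ratio). The lines joining the values are longest for CDC20, with 11.9 and 88.1, and for CHS1, with 191 and 60.3.

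The bounds of 2 and 0.5 cut through a continuous series of ratios. Just inside the upper bound were BUB1 (2.04) and CLB2 (2.05), and just outside it were PAC10 (1.97) and TAO3 (1.94). Near the lower bound, LDB18 (0.464) and the uncertain GLC7 (0.365) were inside, and KEL1 (0.511) and URM1 (0.512) outside. Some of the high ratios rested on low values. BUB1 was at 3.51 in mtr3-1 and 7.16 in dis3mtr, and KEL2 was at 6.43 and 14.4. With ORFs whose mean value was below 10 left out, 12 ORFs were at 2 times or more among the 120 kept. BUB1 and the uncertain YFR036W-A, at 1.69 and 3.94, fell out. KEL2 and SHE1, with means of 10.4 and 11.5, were kept.

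The anaphase-promoting complex is the ubiquitin ligase that starts anaphase by marking securin and the mitotic cyclins. All 13 listed subunit genes had values, and they went both ways. At 115% or more stood 6 of them and at 85% or less 2, against 54.9% and 19.5% of all ORFs. Their median was 0.942 relative to that of all ORFs. Relative to the median the sides were even, with 5 of the 13 subunits high and 5 low, near the 30.8% and 33.8% of all ORFs. On the high side, APC1 was joined by CDC16, at 27.2 in mtr3-1 and 58.2 in dis3mtr (2.14 times), MND2, at 20.96 and 38.1 (1.82 times), DOC1, a substrate-recognition subunit, at 26.4 and 42.4 (1.60 times), and APC9, at 22.6 and 35.4 (1.57 times). APC11, the RING subunit, was at 92.0 and 117 (1.27 times), and passed the upper bound only as deposited.

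Among the low subunits, CDC23 and CDC27 belong with CDC16 to the arm of TPR-repeat proteins, and this arm, also listed after the values were seen, was split with a median of 0.845. CDC27 was at 16.97 and 14.3 (0.845 times) and CDC23 at 0.577 times, while CDC16 was at 2.14 times. SWM1 (0.852), APC5 (0.927) and APC2, the cullin subunit (1.01), passed the lower bound only relative to the median. CDC26 (0.942 relative to the median) and APC4 (0.863) lay between the bounds on either scale. The uncertain YDR118W-A, which the authors also list as APC4, was at 10.5 and 24.6 (2.34 times). YFR036W-A, which they also list as CDC26, was at 1.69 and 3.94 (2.34 times). Both entries were high on both scales and are outside the subunit counts above. Of 5 listed activators and separase genes 3 had values, and these were high as deposited, against 54.9% of all ORFs, and 2 of them relative to the median, against 30.8%. CDH1, the activator of late mitosis and G1, was at 24.3 and 41.7 (1.71 times), and ESP1, the separase that cleaves cohesin, was at 9.99 and 12.6 (1.26 times, 1.03 relative to the median). With CDC20, their median was 1.71.

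B-type cyclins drive mitosis with the kinase Cdc28. CLB1 was at 12.5 in mtr3-1 and 27.4 in dis3mtr (2.19 times), and CLB2, its close relative, was at 11.7 and 23.9 (2.05 times). The earlier-acting cyclins had smaller ratios. CLB3 was at 31.8 and 40.4 (1.27 times), CLB4 at 12.4 and 13.9 (1.12 times), and CLB5, an S-phase cyclin, at 12.7 and 12.1 (0.956 times). In this list of 5 measured genes, 3 were high as deposited and 2, CLB1 and CLB2, relative to the median, where CLB5 was low. These counts were near the shares of all ORFs, 54.9% and 30.8%. CLB2 and CLB5 are convergent neighbours on chromosome 16, with 746 bases between them in R64, and their ratios differed. CCT3 and MAD3, convergent with 330 bases between them, had close ratios of 0.974 and 1.03. The tandem neighbours TVP38 and TGL4, 214 bases apart, were at 0.661 and 1.05 times. No source used here says whether reads were assigned by strand.

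CDC20, CLB1 and CLB2 belong to the CLB2 cluster of transcripts, which peak at G2/M. Of 14 genes listed for that cluster 4 had values, and their median was 2.12, the highest of the lists. The fourth was MOB1, whose protein activates the mitotic exit kinase Dbf2, at 54.6 and 62.2 (1.14 times, 0.934 relative to the median). The labels do not describe the cultures as synchronized. In RNA from a whole culture, a different share of cells at a stage of the cycle and a different amount of RNA per cell cannot be told apart.

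**Figure D3:**
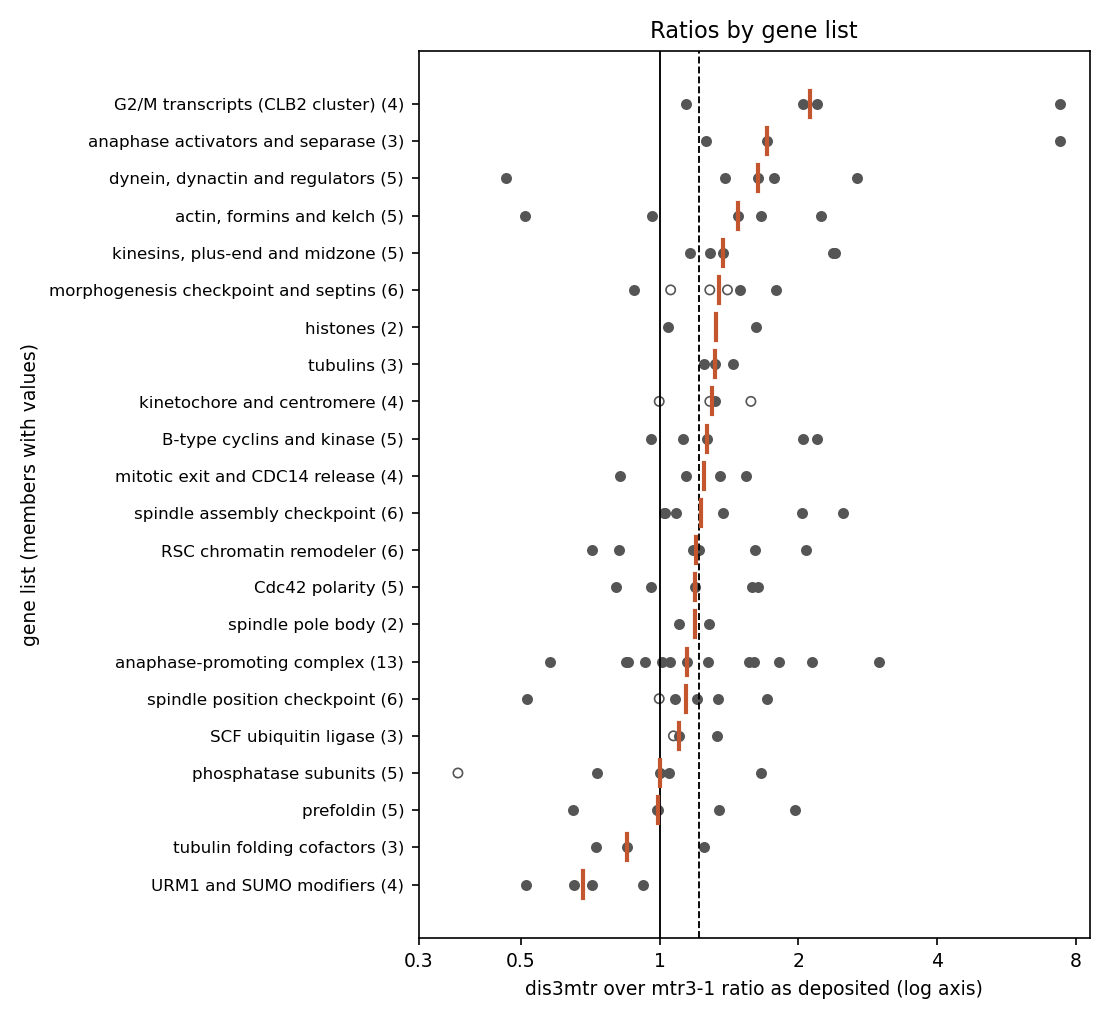
Ratio of dis3mtr over mtr3-1 as deposited (log axis) for every member with values of 22 gene lists, with the number of members in brackets. Filled circles are certain ORFs, open circles uncertain ones and orange bars list medians, and the solid and dashed lines mark 1 and the median ratio of 1.22. The medians run from 0.682 for URM1 and SUMO modifiers to 2.12 for the CLB2 cluster.

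The spindle assembly checkpoint holds anaphase until every chromosome is attached. All 6 listed genes had values. BUB3, BUB1 and MAD1 were high as deposited, 3 of 6 against 54.9% of all ORFs, with MAD1 at 24.2 and 33.3 (1.37 times). MAD2 (1.09), MAD3 (1.03) and the kinase gene MPS1 (1.02) were between the bounds, and the last 2 were below 85% relative to the median. The list's median of 1.23 lay next to that of all ORFs. In the kinetochore and centromere list 4 genes had values and only BIR1, of the chromosomal passenger complex, was certain, at 9.68 and 12.7 (1.32 times). CEP3 (1.58), CBF2 (1.29) and CTF13 (0.998) have uncertain identities, and the last 2 share their values with KCC4 and DMA2 of other lists. SPC105, a kinetochore gene outside the list, had the median ratio itself. SCM3, the chaperone of the centromeric histone, was at 1.52 times. The spindle pole body list had values for 2 of 12 genes, SPC72 (1.28) and SFI1 (1.10). Both were within the bounds relative to the median, which 30.8% of all ORFs passed above and 33.8% below.

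The spindle position checkpoint delays mitotic exit when the spindle is misplaced. Of 6 measured genes, 3 were high as deposited and 1, DMA1, was low, near the 54.9% and 19.5% of all ORFs. KIN4, the checkpoint's kinase, was at 22.4 and 38.4 (1.71 times) and remained high relative to the median. LTE1, which opposes it, was at 5.69 and 7.63 (1.34 times). BFA1 and BUB2, the GTPase-activating pair that holds the mitotic exit network in check, were at 1.21 and 1.08 times, and the uncertain DMA2 at 0.998. In the mitotic exit list, NET1, the nucleolar anchor of the phosphatase Cdc14, was at 40.1 and 61.7 (1.54 times), CDC14 was at 28.6 and 38.7 (1.36 times), MOB1 at 1.14 times, and the kinase gene CDC15 at 18.4 and 15.1 (0.819 times). This list had 2 of 4 members high and 1 low as deposited, also near the shares of all ORFs (54.9% and 19.5%).

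Of 13 listed genes of microtubule motors, plus-end proteins and the midzone 5 had values. All 5 had ratios above the upper bound as deposited, against 54.9% of all ORFs, with a median of 1.37. KIP3, a kinesin that shortens microtubules at plus ends, was at 19.1 in mtr3-1 and 45.6 in dis3mtr (2.38 times). CIK1, the partner of the kinesin Kar3, was at 10.1 and 24.1 (2.40 times). BIM1 was at 39.2 and 53.9 (1.37 times), BIK1 at 37.1 and 47.7 (1.28 times) and the midzone bundler ASE1 at 15.2 and 17.7 (1.16 times). Relative to the median, KIP3 and CIK1 alone among the 5 were high, and none was low, against 30.8% and 33.8% of all ORFs.

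Dynein pulls the spindle into the bud with the help of dynactin. In this list 4 of 5 measured genes were high as deposited, against 54.9% of all ORFs, and 3 relative to the median, against 30.8%, and LDB18 was low on both scales. DYN1, the dynein heavy chain, was at 15.8 and 28.1 (1.77 times). The 3 measured dynactin genes, a group listed after the values were seen, had a median of 1.38 and were split, with JNM1 at 16.04 and 26.2 (1.63 times) and ARP1 at 30.8 and 42.7 (1.38 times), against LDB18 at 0.464 times. SHE1, the inhibitor of dynein, had the highest ratio of the list.

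Tubulin genes had ratios near the overall median. TUB2, the β-tubulin gene, was at 289 in mtr3-1 and 417 in dis3mtr (1.44 times), TUB1 at 136 and 179 (1.32 times) and TUB3, the minor α-tubulin, at 137 and 171 (1.25 times). All 3 were high as deposited, against 54.9% of all ORFs. Relative to the median only TUB2 passed the upper bound, at 1.18, 1 of 3 against 30.8% of all ORFs. Of the 6 listed cofactors that fold tubulin 3 had values, 1 high and 2 low as deposited, against 54.9% and 19.5% of all ORFs. Among them, CIN1 was at 34.1 and 42.5 (1.25 times), RBL2, which binds β-tubulin, at 65.1 and 55.2 (0.848 times), and PAC2, which acts on α-tubulin, at 13.3 and 9.70 (0.728 times). The median of the cofactors was 0.848.

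Prefoldin, which hands unfolded actin and tubulin to the CCT chaperonin, had 5 subunits with values and was mixed. PAC10 was at 71.9 in mtr3-1 and 141 in dis3mtr (1.97 times) and GIM3 at 150 and 202 (1.35 times). GIM5 was at 89.7 and 89.1 (0.994 times) and YKE2 at 94.7 and 93.5 (0.987 times). GIM4 was at 111 and 72.0 (0.648 times). As deposited, 2 of the 5 were high and 1 low, near the 54.9% and 19.5% of all ORFs. Relative to the median, 1 was high and 3 were low, against 30.8% and 33.8%. The CCT subunits, a list added after the values were seen, had 7 members with values between 0.930 and 1.45 and a median of 1.14. CCT6 was the highest, at 229 and 332, and CCT7 the lowest, at 157 and 146.

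The URM1 and SUMO modifier list had the lowest median, 0.682, and was the only list with no member above 1. URM1 was at 0.512 times, and UBA4, the enzyme that activates Urm1, was at 120 and 78.1 (0.652 times). ULP1, a SUMO protease, was at 23.7 and 16.9 (0.711 times), and UBC9, the SUMO-conjugating enzyme, was at 97.2 and 89.3 (0.919 times). At 85% or less stood 3 of the 4, against 19.5% of all ORFs, and relative to the median all 4, against 33.8%. In the SCF ubiquitin ligase list 3 of 8 genes had values, CDC4 at 1.33 times, CDC53 at 1.10 and the uncertain SKP1 at 1.07. None of the 3 passed a bound relative to the median, against 30.8% high and 33.8% low of all ORFs.

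Genes of the Cdc42 polarity module went both ways. CDC24, the exchange factor of Cdc42, was at 21.6 in mtr3-1 and 35.3 in dis3mtr (1.64 times), and the kinase gene CLA4 at 36.6 and 58.1 (1.59 times). CDC42 was at 308 and 367 (1.19 times, 0.977 relative to the median). The effectors GIC1, at 41.9 and 40.04 (0.956 times), and GIC2, at 83.8 and 67.5 (0.805 times), were the lower members. In all, 3 of the 5 were high and 1 low as deposited, close to the 54.9% and 19.5% of all ORFs. Among actin, formin and kelch genes, BNI1, the formin that builds actin cables, was at 17.4 and 28.9 (1.66 times) and MYO2, the myosin that carries cargo along them, at 37.6 and 55.7 (1.48 times). ACT1 was at 1443 and 1390 (0.963 times). That list had 3 of 5 high and 1, KEL1, low as deposited, again close to those shares.

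The RAM network controls polarized growth and daughter-cell transcription. Its kinase gene CBK1 was at 33.3 and 43.6 (1.31 times), its activator MOB2 at 28.7 and 51.6 (1.80 times) and its scaffold TAO3 at 24.4 and 47.3 (1.94 times). These 3 of the 6 genes known for the network had values, and the list was added after the values were seen. In the morphogenesis checkpoint and septin list HSL7 was at 46.1 and 82.3 (1.78 times) and HSL1, which recruits it, at 45.0 and 67.3 (1.49 times). MIH1, the phosphatase that opposes Swe1, was at 13.9 and 12.2 (0.881 times). With the uncertain GIN4, KCC4 and BNI5, 4 of the 6 were high as deposited, against 54.9% of all ORFs. KCC4, counted among the high members, carried the same values as CBF2 of the kinetochore list.

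The RSC complex remodels nucleosomes, and its 6 measured genes were spread on both sides of the overall median, with a median of 1.20. SFH1 was at 15.7 and 32.7 (2.08 times) and RSC6 at 82.2 and 132 (1.61 times). STH1, the ATPase, and RSC9 were at 1.21 and 1.18 times. RSC3 was at 15.2 and 12.4 (0.818 times) and RSC4 at 22.2 and 15.8 (0.712 times). Of the phosphatase genes, RTS1, a regulatory subunit of PP2A, was at 56.4 and 41.3 (0.733 times), CDC55, the other regulatory subunit, was at 59.7 and 59.9 (1.00 times), and the uncertain GLC7 was at 0.365 times. With PPH21 and PPH22, this list of 5 had 1 member high and 2 low as deposited, against 54.9% and 19.5% of all ORFs.

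Closely related genes did not always share a ratio. In 9 gene pairs, chosen after the values were seen, the higher ratio exceeded the lower by 1.06 to 4.38 times, and by more than 1.5 times in 5 of them. The same count was not made for unrelated genes. Ratios of all ORFs had quartiles of 0.963 and 1.52, with 54.9% high and 19.5% low as deposited. The pairs are therefore described singly, and related genes are not set apart from others. KEL1 and KEL2, which encode kelch proteins that bind each other, lay on opposite sides of the bounds, since KEL1 was at 0.511 times and KEL2, at 6.43 and 14.4, at 2.24 times. The kinase genes CLA4 and SKM1 also did, with SKM1 at 48.2 and 34.6 (0.719 times). BUB1 and MAD3, which share an ancestor, differed by 1.98 times. PPH21, at 106 and 176 (1.66 times), differed from PPH22, at 84.5 and 88.3 (1.05 times), although both encode the catalytic subunit of PP2A.

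The histone H3 genes HHT1 and HHT2 encode the same protein. HHT1 was at 402 in mtr3-1 and 650.2 in dis3mtr (1.62 times), and HHT2 was at 421 and 438 (1.04 times, 0.854 relative to the median). These were the 2 measured genes of 9 in the histone list, and HHT1 was high on both scales. TUB1 and TUB3 differed by 1.06 times, and CLB1 and CLB2 by 1.07 times. No source used here says how reads matching both genes of such a pair were assigned.

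**Figure D4:**
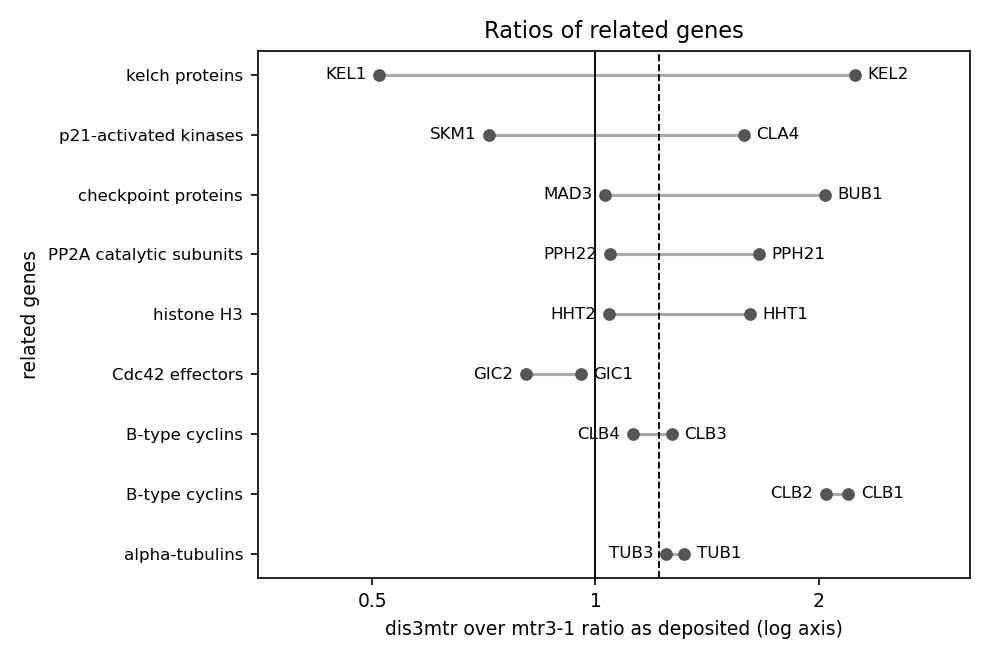
Ratio of dis3mtr over mtr3-1 (log axis) for both genes of 9 related pairs, joined by a line and ordered by the size of the difference, with lines at 1 and at the median ratio of 1.22. KEL1 (0.511) and KEL2 (2.24) are farthest apart and TUB1 (1.32) and TUB3 (1.25) closest.

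By the authors' tables, counted over entries with values, establishment of mitotic spindle orientation had the highest median ratio among terms of more than 1 entry, 1.56 over 10 entries. It holds KIP3, CIK1, DYN1, JNM1 and BNI1 on the high side and LDB18 and DMA1 on the low side. Mitotic metaphase/anaphase transition followed with 1.42 over 14 entries, and mitotic spindle elongation had 1.28 over 22. The lowest median was that of cell budding, 0.727 over 8 entries, of which 5 were at 85% or less on both scales, against 19.5% of all ORFs as deposited and 33.8% relative to the median. These were CHS1, URM1, UBA4, the calmodulin gene CMD1 (0.801) and the uncertain GLC7, while TAO3 was the entry above 115%. In negative regulation of mitotic exit the median was 0.967 over 5 entries, with KEL1 the lowest and KEL2 the highest. Tubulin complex assembly chaperones had a median of 0.990 over 6 entries. Of the 133 ORFs, 38 sat in more than 1 term, so the terms share values.

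The ratio was set against coding length and level. Spearman's rho between the log2 ratio and the coding length was 0.15 across the 121 certain ORFs and 0.18 across the 130 with a coding length, where a straight line had a slope of 0.13 on the log2 scale per doubling of length. Split by coding length into 4 groups, from short to long, the ORFs had median ratios of 1.14, 1.28, 1.07 and 1.41. The longest group, from 2403 to 12279 bases, held 15 of its 30 ORFs at 115% or more relative to the median and 5 at 85% or less, against 30.8% and 33.8% of all ORFs. It included DYN1, TAO3, BNI1 and APC1 among the high and CHS1 and KEL1 among the low. With the mean of both deposited values in place of length, rho was -0.11, and the median ratios of 4 groups of rising level were 1.12, 1.42, 1.23 and 1.04. Genes in these correlations share both libraries and are not independent, and no source used here says whether the deposited values are scaled to length. Removal of a straight-line trend on length left 77 ORFs at 115% or more and 22 at 85% or less, of 130 with a coding length. The detrended ratios were centred on the median ratio of those ORFs, so their median stayed at 1.22 by construction. Whether the excess of high over low ORFs depends on length was therefore not tested.

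**Figure D5:**
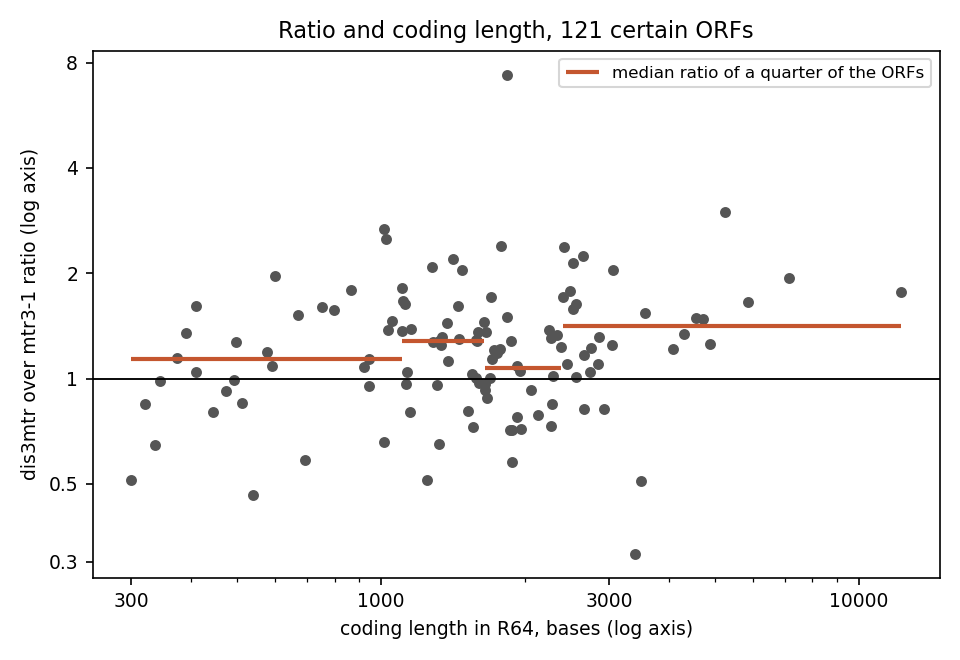
Ratio of dis3mtr over mtr3-1 (log axis) against coding length in bases (log axis) for the 121 certain ORFs, 1 point each. Orange bars show the median ratio in 4 groups of the ORFs by length, which were 1.14, 1.28, 1.07 and 1.41 from the shortest to the longest.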

How the data were processed

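Poly(A)-selected RNA of 4 yeast genotypes was sequenced for 36 cycles in 1 Illumina GAIIx lane with 3-base barcodes, per the labels' protocols. Bowtie and sacCer2 appear in the submitters' processing notes. The deposited values, which the authors call normalized numerical values, were treated as a score with no fixed scale, because no source used here gives the counting or the normalization. No whole-read steps were found in them. The authors' percents of WT were not used.

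The 16 tables held 190 entries, 175 with values. The ratio of dis3mtr to mtr3-1 was computed per ORF (Python 3.11.15, pandas 2.3.3) and also divided by its median. Names and coding lengths came from the R64 annotation, which served for an identity check with a tolerance of 1 kb, and printed kb positions are the authors' on sacCer2. No sequence was read, since the builds differ. Scripts were tested on simulated data. With 1 library a side no test was possible.

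Genes named were the 15 highest and 15 lowest certain ratios, members of 23 lists, and ORFs next to 2 and 0.5. Other genes (SPC105, SCM3, SGO1, CMD1, TGL4, CBK1, MOB2, the CCT genes) were named after their values were seen. Lists of CCT, RAM, TPR, dynein (DYN1 alone measured) and dynactin genes were added, and 9 gene pairs chosen, after the values were seen. Members and lists were chosen with earlier results of these data known. A gene among the 15 lowest is not reported here. In all, 7 alternatives were tried.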

Additional observations from a re-analysis of the deposited data

How the results depend on the processing

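Among the alternatives run on the counts and the median, division by the median ratio was the one that moved all 5. It changed the ORFs at 115% or more from 73 to 41, those at 85% or less from 26 to 45, those at 2 times or more from 14 to 4 and those at 0.5 or less from 4 to 9, and the median became 1 by construction. The 4 ORFs at 0.5 times or less became 2 with values averaging below 10 left out, and also 2 with certain identities only, both times without GLC7 and YER133W-A, whose identity is uncertain and whose mean value was 8.86. Under division by the median 6 single ratios called high turned to the other side of 1: STH1 0.996, SGO1 0.994, BFA1 0.990, CDC42 0.977, RSC9 0.969 and ASE1 0.955. The medians of 3 lists did the same: spindle pole body 0.976, Cdc42 polarity 0.977 and RSC 0.983. Adding 1 to both values moved 2 of 133 single ratios across a bound and turned none. No paired analysis was possible because each genotype had 1 library. The depth is unknown, so counting error could not be attached to low values such as those of BUB1 and KEL2.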
